A study of Mus musculus with 8 samples.

Results

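The replication-dependent histone genes were taken as the protein-coding mouse genes whose symbol is H1f1 to H1f5, or H2ac, H2bc, H3c or H4c followed by a number. This rule found 62 of the 21900 protein-coding genes that RefSeq annotates on GRCm38.p6 (mm10). They comprised 5 H1, 17 H2A, 16 H2B, 12 H3 and 12 H4 genes, with 52 on chromosome 13 and 10 on chromosome 3. None of the 62 lay on chromosome 11, where the table lists the older Hist3 genes under the symbols H2aw and H2bu2. The data were CUT&RUN peak lists from C57BL/6 mouse embryonic stem cells grown in serum with LIF and the inhibitors CHIR99021 and PD0325901. In CUT&RUN an antibody brings protein A fused to micrococcal nuclease to the sites of a protein in permeable nuclei, and the released DNA is sequenced. A rabbit antibody to METTL14 was used in Mettl3 CKO and Mettl3 control cells, and a rabbit antibody to METTL3 in Mettl14 CKO and Mettl14 control cells. Each of the 4 groups had 2 libraries. The labels leave CKO unexplained, name no Cre driver or clone, and do not say whether paired libraries came from separate cultures, so spread between libraries may be technical. No library without an antibody target was analysed here, and a peak list can test neither the deletion nor the cell type.

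METTL3 and METTL14 form the core of the nuclear enzyme that places m6A on RNA. Replication-dependent histone genes supply the nucleosome proteins that newly copied DNA needs in S phase, and embryonic stem cells, with their short cell cycle, use them heavily. H2A, H2B, H3 and H4 form the nucleosome core, and H1 binds the linker DNA. The genes are short and lack introns, many H2A and H2B genes share a promoter as divergent pairs, and their mRNAs end in a stem-loop instead of a poly(A) tail. They are transcribed in a nuclear body that gathers around the clusters.

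Examples of METTL14 regions that recurred between libraries and reached a histone promoter are shown here with the DNA they cover. The recurrent regions at H2ac6 and at H2ac13, which shares its region with H2bc13, are not printed. Each sequence is the 250 bases before the annotated gene start, 5′ to 3′ on the gene's strand, from RefSeq promoter windows on GRCm38.p6. Capitals mark bases under a METTL14 peak of at least 1 library. H2bc3 (chr13:23746484-23746733, plus strand) is shown because its upstream region was called in all 4 METTL14 libraries. H3c4 (chr13:23575513-23575762, plus strand) had its region in 3 libraries. H2bc6 (chr13:23585971-23586220, minus strand) had one in both Mettl3 CKO libraries and in neither control. H2bc18 (chr3:96269450-96269699, plus strand) stands for chromosome 3, and H2bc13 (chr13:21716184-21716433, minus strand) for the divergent pairs.
H2bc3: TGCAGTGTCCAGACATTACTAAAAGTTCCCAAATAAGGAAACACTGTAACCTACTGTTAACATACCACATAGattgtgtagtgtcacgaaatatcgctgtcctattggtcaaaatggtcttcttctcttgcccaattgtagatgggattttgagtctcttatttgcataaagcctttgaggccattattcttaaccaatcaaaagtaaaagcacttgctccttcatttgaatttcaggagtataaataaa
H3c4: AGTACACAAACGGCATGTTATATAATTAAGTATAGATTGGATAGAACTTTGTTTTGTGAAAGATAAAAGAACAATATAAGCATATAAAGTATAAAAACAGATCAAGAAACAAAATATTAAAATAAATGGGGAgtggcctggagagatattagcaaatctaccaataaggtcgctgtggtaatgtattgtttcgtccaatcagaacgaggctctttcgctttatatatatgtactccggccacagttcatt
H2bc6: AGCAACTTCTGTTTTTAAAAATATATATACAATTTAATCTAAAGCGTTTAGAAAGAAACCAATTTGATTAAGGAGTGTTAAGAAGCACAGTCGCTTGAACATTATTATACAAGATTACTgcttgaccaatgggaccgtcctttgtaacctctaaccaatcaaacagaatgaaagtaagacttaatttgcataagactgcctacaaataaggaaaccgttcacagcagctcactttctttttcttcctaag
H2bc18: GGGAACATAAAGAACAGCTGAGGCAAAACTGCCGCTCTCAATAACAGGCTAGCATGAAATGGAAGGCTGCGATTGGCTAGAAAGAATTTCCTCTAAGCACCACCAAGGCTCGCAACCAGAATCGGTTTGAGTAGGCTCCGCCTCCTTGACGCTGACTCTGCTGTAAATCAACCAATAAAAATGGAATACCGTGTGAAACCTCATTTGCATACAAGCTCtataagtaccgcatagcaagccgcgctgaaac
H2bc13: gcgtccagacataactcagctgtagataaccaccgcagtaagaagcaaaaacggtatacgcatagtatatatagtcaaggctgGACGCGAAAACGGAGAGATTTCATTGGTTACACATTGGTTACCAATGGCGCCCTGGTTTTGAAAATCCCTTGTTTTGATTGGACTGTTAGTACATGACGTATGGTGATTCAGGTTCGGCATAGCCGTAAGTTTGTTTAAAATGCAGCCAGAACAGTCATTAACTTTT

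In H2bc3 the peaks covered 72 of the 250 bases, at the far end from the start. The octamer ATTTGCAT, which the factor Oct-1 reads in H2B promoters, began at position -90 outside those bases, counting -1 as the base before the start. In H2bc6 the octamer began at -67, again outside the 119 covered bases. In H2bc18 it began at -48, inside the 218 covered bases, but under the peak of control replicate 2 only. H2bc13 had no octamer in these letters, but had 4 CCAAT matches on either strand, all inside its 167 covered bases. All 4 lay under the peak of CKO replicate 1 only. In H3c4 the 132 covered bases held 2 TATAAA matches, at -168 and -161. The covered bases of H3c4 were 24.2% G or C, against 42.4% for its uncovered bases, and those of H2bc6 26.9% against 39.7%. The gap was smaller in H2bc18 (46.8% against 50%) and H2bc13 (41.3% against 43.4%). The covered bases had the higher share in H2bc3 (37.5% against 35.4%), H2ac13 (39.7% against 39.3%) and H2ac6 (47.4% against 40.6%). In H2ac6 most covered bases lay under a separate peak of control replicate 2 only (chr13:23684118-23684266). Its recurrent region (chr13:23683803-23683962) reached only the bases next to the start.

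Short motifs were searched on both strands in the 300-base windows, from 250 bases before to 50 after the start, of the 57 histone genes that have one. ATTTGCAT was present in 22.8% of histone windows, 7 of 14 for H2B and 6 of 17 for H2A, against 1.90% over the windows of 17492 protein-coding genes. CCAAT was present in 86.0% against 42.3%, and TATAAA in 59.6% against 14.8%. CCAAT was found in every H1, H2A, H2B and H3 window but in 3 of 11 H4 windows. Matches of different motifs did not overlap in the sequences shown. A METTL14 peak of any library overlapped 24 of the 57 windows. By library the share was 26.3% and 10.5% in CKO and 10.5% and 19.3% in control libraries. Over the 17492 protein-coding genes it was 6.58% and 2.47% in CKO and 3.92% and 5.05% in control libraries. The octamer stood in 8 of those 24 and in 5 of the other 33, CCAAT in 22 of 24 and 27 of 33, and TATAAA in 14 of 24 and 20 of 33. The motif shares describe letters only and say nothing of which factor binds.

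METTL14 peaks lay within 2 kb of many histone genes in every METTL14 library. In Mettl3 CKO cells 17 and 9 distinct peaks marked 27 and 12 of the 62 genes, and in Mettl3 control cells 9 and 13 peaks marked 16 and 25 genes. The same window caught 12.9% and 4.91% of all protein-coding genes in the CKO libraries, and 9.71% and 11.2% in the control libraries. The histone shares were 43.5% and 19.4% in CKO and 25.8% and 40.3% in control libraries, above the share of all genes in each of the 4 libraries. The median histone gene was 491 bp long and the median protein-coding gene 17146 bp, so the histone window was the narrower one. Among the 1585 protein-coding genes of at most 1 kb, 57 histone genes included, the marked share was 2.59% and 1.39% in CKO and 1.77% and 2.33% in control libraries. Histone genes themselves supplied 25 of the 41 and 10 of the 22 marked short genes in CKO libraries. In control libraries they supplied 14 of 28 and 24 of 37. Neighbouring histone genes share peaks and are not independent, since 18 of the 48 peaks lay within 2 kb of 2 members and 10 within 2 kb of 3.

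**Figure D1:**
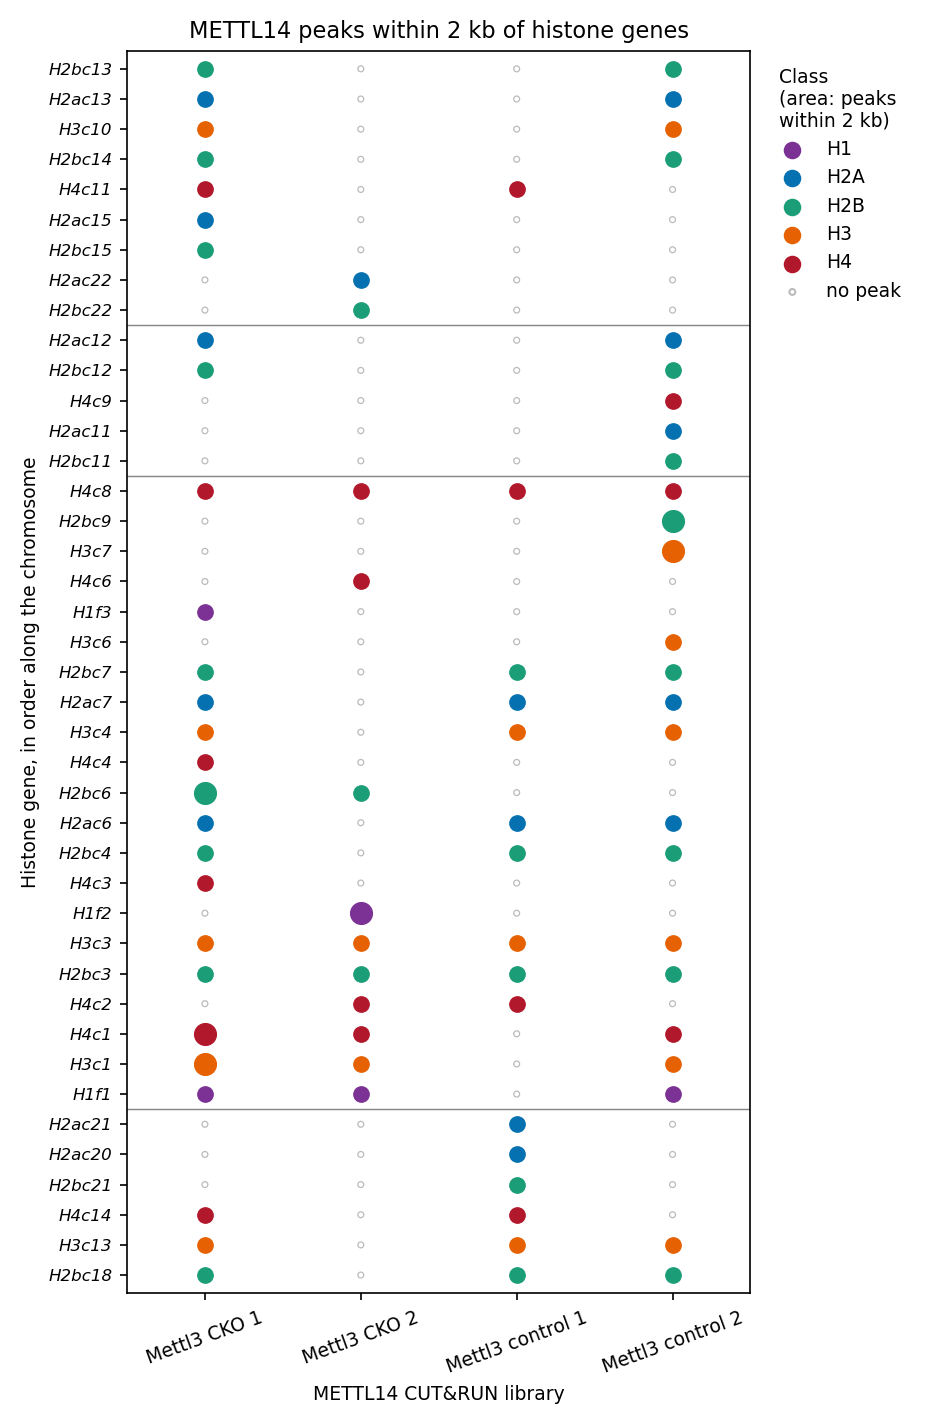
The 41 histone genes with a METTL14 peak in at least 1 library, in chromosome order from top to bottom, against the Mettl3 CKO and Mettl3 control libraries. A filled point marks a gene with a peak within 2 kb, its colour gives the histone class and its area the number of peaks, and lines separate groups of genes over 100 kb apart. H4c8, H3c3 and H2bc3 are filled in all 4 columns, and 18 genes in 1 column.

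Over the 4 METTL14 libraries 41 of the 62 histone genes had a peak at least once, where 20.8% of all protein-coding genes did. By gene, 18 were marked in 1 library, 10 in 2, 10 in 3 and 3 in all 4. Of all protein-coding genes 2.53% were marked in all 4. The 3 genes were H4c8, which encodes core histone H4, H3c3, which encodes H3, and its neighbour H2bc3, which encodes H2B. Both CKO libraries marked 7 genes and both control libraries 10, against 3.91% and 5.37% of all genes.

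Asking for the same region in both libraries left fewer genes. A region touched by both CKO libraries lay within 2 kb of 6 histone genes, H2bc6, H3c3, H2bc3, H4c1, H3c1 and H1f1, where the share of all genes was 3.16%. A region touched by both control libraries lay within 2 kb of 5, H2bc7, H2ac7, H3c4, H3c3 and H2bc3, where the share of all genes was 3.87%. These counts come from 3 CKO regions and 2 control regions. They rest on the requirement of both libraries: CKO replicates 1 and 2 alone marked 27 and 12 genes, and control replicates 1 and 2 alone 16 and 25. H4c8, for example, was marked in all 4 libraries with no region shared by both libraries of a genotype.

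The share of each METTL14 list that fell near histone genes allows for the lists' different lengths. It was 0.433% (95% Wilson interval 0.271% to 0.693%) and 0.625% (0.329% to 1.18%) in the Mettl3 CKO libraries. In the Mettl3 control libraries it was 0.288% (0.151% to 0.546%) and 0.367% (0.214% to 0.626%). Both CKO libraries stood above both control libraries, and all 4 intervals overlapped. The means were 0.529% ± 0.136 in CKO and 0.327% ± 0.0558 in control cells (SD, n = 2 each), a difference of 0.202 percentage points (exact permutation p = 0.333, two-sided, the smallest that 2 against 2 allows). The difference was 0.106 points without CKO replicate 2, whose list was the shortest. With every list shortened in file order to 1439 peaks the libraries no longer separated, at 0.278% and 0.625% in CKO and 0.417% in each control library (difference 0.0347 points, exact permutation p = 1). With the first 50% of each list the difference was 0.00106 points. Peak numbers also overlapped, with 13 ± 5.66 in CKO and 11 ± 2.83 in control cells (SD, n = 2 each, exact permutation p = 1). Intervals cover counting error only, and the sequencing depth is unknown.

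**Figure D2:**
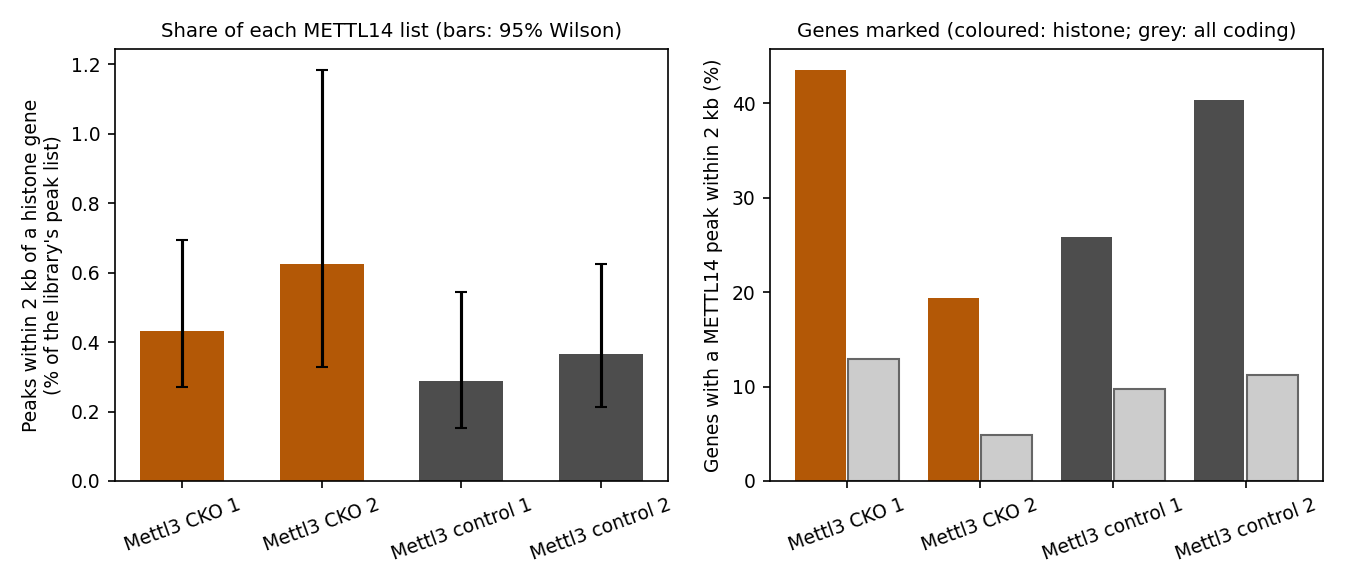
Left, the percentage of each METTL14 peak list within 2 kb of a histone gene, with 95% Wilson intervals, from 0.288% to 0.625%. Right, the percentage of the 62 histone genes (coloured) and of all 21900 protein-coding genes (grey) with a peak within 2 kb in the same library, where the histone bar is the taller one in each of the 4 libraries.

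No METTL3 library had a peak within 2 kb of a histone gene, in Mettl14 CKO (0 of 242 and 0 of 344 peaks) or in Mettl14 control cells (0 of 353 and 0 of 341). Taken singly, each list was too short to show a share as low as that of METTL14, and the lists were not pooled. A count of 0 allows up to 1.24% and 0.872% of the list in the CKO libraries and 0.850% and 0.880% in the control libraries, and every METTL14 share was below these limits. Of all protein-coding genes, METTL3 peaks marked 0.393% and 0.584% in the CKO libraries and 0.635% and 0.566% in the control libraries, so 0 of 62 is near the background. The nearest METTL3 peak of any library to a histone gene was 1106254 bp from H2bc18, in Mettl14 CKO replicate 1. In the other libraries the nearest was 8002535 bp away in CKO replicate 2, and 7959372 and 3324373 bp away in control replicates 1 and 2.

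Of the 5 linker histone genes 2 and 2 were marked in the Mettl3 CKO libraries and 0 and 1 in the Mettl3 control libraries. Beside this and the class counts that follow, the shares of all protein-coding genes were 12.9% and 4.91% in CKO libraries. In control libraries they were 9.71% and 11.2%. H1f1 had 1 peak in each CKO library (chr13:23762540-23762688 and chr13:23762545-23762693) and 1 in control replicate 2 (chr13:23762564-23762712). These 3 peaks overlapped one another and lay 154, 159 and 178 bp outside H3c1, so they count for H3c1, H4c1 and H1f1 alike. The H1f1 start was 1030 to 1054 bp away. H1f2 had 2 peaks in CKO replicate 2 only, at chr13:23738856-23739004 and chr13:23739326-23739474, both inside the gene. H1f3 had 1 peak in CKO replicate 1 only, centred 176 bp before its start. H1f4 and H1f5 had none in any library, and with 5 genes no difference between genotypes was tested for the class.

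Over the 4 libraries together H2B was the class with the most marked members, although in CKO replicate 2 it had 3 and H4 had 4. Of the 16 genes 9 and 3 were marked in the CKO libraries and 5 and 9 in the control libraries, 13 in at least 1. H2bc3 had its peak at chr13:23746407-23746555 and chr13:23746380-23746528 in CKO replicates 1 and 2. In control replicates 1 and 2 it lay at chr13:23746404-23746552 and chr13:23746384-23746532. All 4 peak centres therefore lay within 253 to 280 bp before the H2bc3 start, and the same peaks counted for H3c3. H2bc6 showed the only region called in both CKO libraries and in no control library (chr13:23586102-23586250 and chr13:23586121-23586269), centred 206 and 225 bp before the nearer of its 2 annotated starts. As annotated, H2bc6 spans 37455 bp, and the region lies inside that span. H2bc18, on chromosome 3, had 1 peak in CKO replicate 1 (chr3:96269381-96269529) and none in CKO replicate 2. Its control peaks were chr3:96269733-96269881 and chr3:96269519-96269667, so the 3 peak centres ran from 245 bp before the start to 107 bp after it. Further H2B genes with peaks were H2bc4, H2bc7, H2bc9, H2bc11, H2bc12, H2bc13, H2bc14, H2bc15, H2bc21 and H2bc22.

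H2A genes were marked 5 and 1 times among 17 members in the CKO libraries, and 4 and 5 times in the control libraries. The 1 of 17 in CKO replicate 2 was near the 4.91% of all genes. H2ac6 had a peak in CKO replicate 1 (chr13:23683803-23683951) and in both controls (chr13:23683814-23683962 and chr13:23684118-23684266), centred within 233 bp of its start in each case. The same peaks counted for H2bc4. H2ac7 was counted in the same 3 libraries through the region in front of H3c4. The other marked H2A genes were H2ac11, H2ac12, H2ac13, H2ac15, H2ac20, H2ac21 and H2ac22. Divergent pairs were sought among genes with an annotated start, which H2bc4 and H2bc21 lack, so any pair with either gene was not counted. The 9 divergent H2A and H2B pairs found had starts 164 to 281 bp apart. A peak touched the space between the starts in 2 and 1 of these pairs in CKO and 0 and 2 in control libraries. H2bc13 with H2ac13 was the only one of the 9 pairs touched in more than 1 library (CKO replicate 1 and control replicate 2).

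H3 genes were marked 5 and 2 times among 12 members in CKO libraries and 3 and 7 times in control libraries. The H3c4 region was called in CKO replicate 1 (chr13:23575496-23575644) and in control replicates 1 and 2 (chr13:23575496-23575644 and chr13:23575475-23575623), but not in CKO replicate 2. Its peaks were centred 193, 193 and 214 bp before the H3c4 start. H3c1 had 2 and 1 peaks in the CKO libraries and 0 and 1 in the control libraries. H3c13, on chromosome 3, was marked in CKO replicate 1 and both controls through the peaks at H2bc18. H3c6, H3c7 and H3c10 were the other marked H3 genes, each in at least control replicate 2.

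H4 genes were marked 6 and 4 times among 12 members in CKO libraries and 4 and 3 times in control libraries. H4c8 was marked in every library but at shifting positions, centred 529 and 140 bp after its start in CKO replicates 1 and 2, and 98 bp after and 216 bp before it in control replicates 1 and 2. H4c8 was also the only histone gene with a tRNA gene within 2 kb (n-TMcat9). H4c2 was marked in CKO replicate 2 (chr13:23757277-23757425) and control replicate 1 (chr13:23757026-23757174) by peaks that overlapped the gene but not each other. H4c14, on chromosome 3, had a peak inside the gene in CKO replicate 1 (chr3:96263159-96263307) and control replicate 1 (chr3:96263138-96263286). H4c11 had peaks centred 670 and 617 bp before its start in the same pair of libraries. H4c1 was marked in both CKO libraries and control replicate 2, and H4c3, H4c4, H4c6 and H4c9 in 1 library each. H4c3 was the only gene whose peak also lay within 2 kb of a non-member coding gene, H1f6, a testis linker histone.

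Most of these peaks were centred within 500 bp of an annotated gene start. That distance exceeds the length of the median histone gene, 491 bp, so it does not separate the start from the gene body. All 48 peaks lay within 764 bp of a histone gene, and 24 overlapped one. The next peaks outward were 2523, 4247 and 4473 bp from a member, all in control libraries, and they are outside the 2 kb window. A centre within 500 bp of an annotated histone start was found for 13 of 17 and 7 of 9 peaks in CKO and for 7 of 9 and 10 of 13 in control libraries. For 7 of the 48 peaks the nearest histone gene (H3c1, H4c14, H3c7 or H2bc4) has no start in the promoter table, so they were measured to another gene, and 6 of the 7 count as far. Of the other 41 peaks 36 lay within 500 bp (87.8%). Of the 37 such peaks in all 21 were upstream and 16 downstream of the start. The share, 77.1% over all 48, was 46.7% for METTL14 peaks near any protein-coding gene, but 77.5% (31 of 40) for those near other protein-coding genes of at most 1 kb. Those other short genes all had an annotated start. The closer match is therefore the 87.8% of the 41 histone peaks, which was higher than 77.5%. The difference was not tested.

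**Figure D3:**
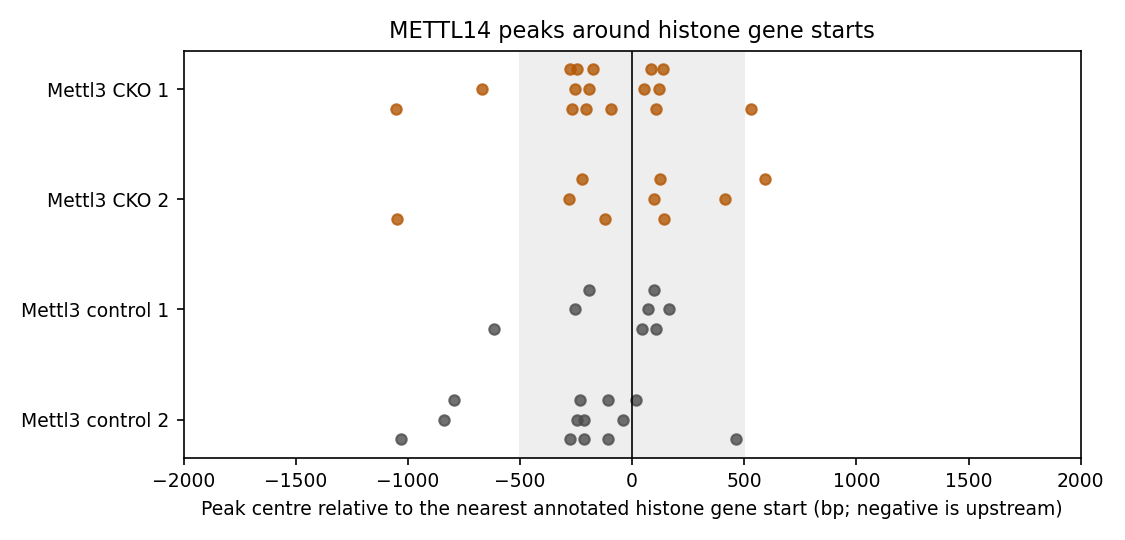
Centre of each METTL14 peak relative to the nearest annotated histone gene start, by library, with negative values upstream and the grey band 500 bp to either side. The points gather within the band in the 2 Mettl3 CKO and the 2 Mettl3 control libraries, and the 2 peaks at H4c14, which has no start in the promoter table, are left out.

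By position, the genes fell into 5 groups separated by more than 100 kb. The largest, 28 genes over 233369 bp of chromosome 13 (chr13:23531044-23764412), held 10 and 8 of the peaks in CKO and 5 and 8 in control libraries, and 21 of its genes were marked at least once. Each histone region touched by both libraries of a genotype lay in this group. The first group (17 genes, chr13:21715711-21833475) held 4 and 1 peaks in CKO and 1 and 2 in control libraries. The second (5 genes, chr13:22035122-22043658) held 1 and 0 in CKO and 0 and 2 in control libraries. The pair H2bc1 and H2ac1, testis histones at chr13:23933725-23934913, had none. The chromosome 3 cluster (10 genes, chr3:96219885-96270192) held 2 and 0 peaks in CKO and 3 and 1 in control libraries, so CKO replicate 2 had none there.

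**Figure D4:**
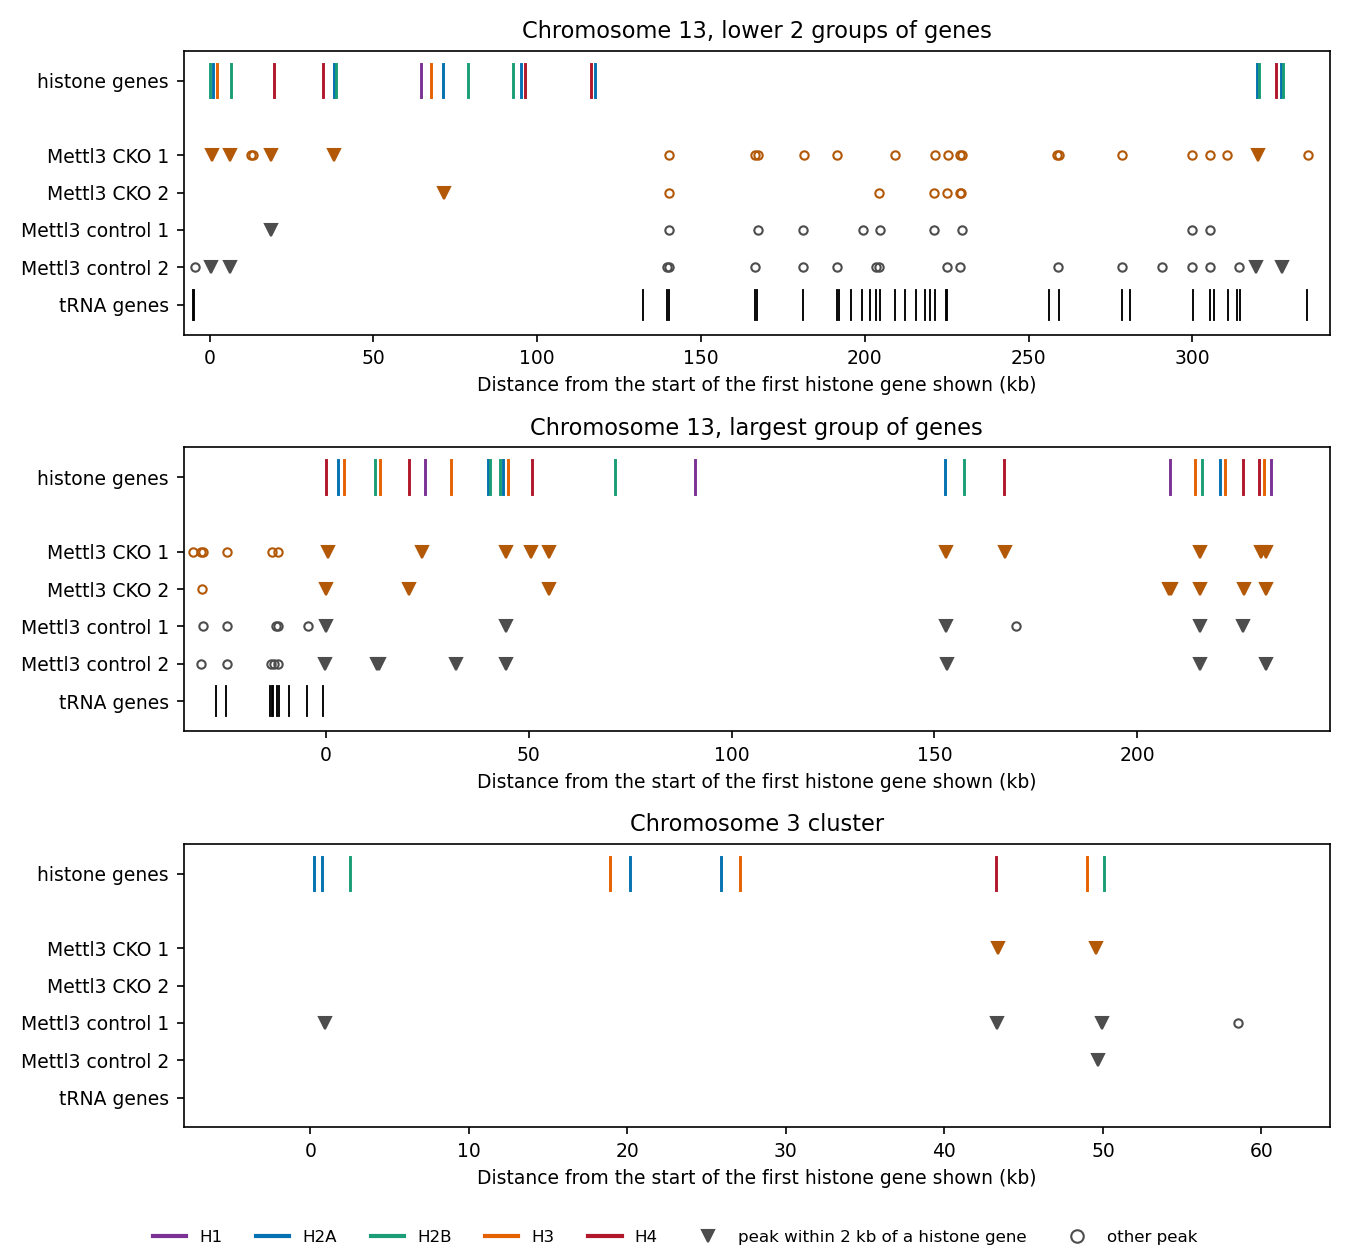
METTL14 peaks along the chromosome 13 and chromosome 3 histone genes, in kb from the first histone gene of each panel, with Mettl3 CKO rows above Mettl3 control rows. Triangles are peaks within 2 kb of a histone gene, circles other peaks, coloured ticks histone genes and black ticks tRNA genes. Between the histone groups of the top panel the peaks are mostly circles at the tRNA ticks.

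On chromosome 13, tRNA genes, which RNA polymerase III transcribes, lie before and between the histone groups but not inside them, and METTL14 peaks lay there too. The span from the first to the last chromosome 13 member, with 10 kb before it, holds 79 tRNA genes. In that span CKO libraries had 36 and 12 peaks within 2 kb of a tRNA gene but of no histone gene, and control libraries 22 and 26. Peaks near a histone gene but no tRNA gene numbered 14 and 8 in CKO and 5 and 11 in control libraries, and 1 peak per library was near both. Few lay near neither, 4 and 2 in CKO and 2 and 2 in control libraries. Of the 79 tRNA genes 72.2% and 32.9% had a peak within 2 kb in CKO and 53.2% and 58.2% in control libraries. For the 329 other nuclear tRNA genes the shares were 42.6% and 27.7% in CKO and 33.1% and 38.3% in control libraries. Dense tRNA genes share peaks, and METTL3 lists had no peak in the span.

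No METTL14 peak of any library was found at 21 histone genes, 2 of H1, 8 of H2A, 3 of H2B, 5 of H3 and 3 of H4. Of the 21, 9 have near copies among the RefSeq promoter windows, a property looked at after the values were seen. Each gene's 300-base window was cut into 50-base words, and a window was called repeated when over 50% of its words occurred in another RefSeq window that it did not overlap. The 9 repeated windows belonged to H3c14, H3c15, H2ac18 and H2ac19 on chromosome 3 and to H2ac23, H2ac24, H2bc23, H4c17 and H4c18 on chromosome 13. None of the 9 genes had a peak, against 36 of the other 48 genes with a window. Treatment of reads that match more than 1 place is not given in the sources used here, and its part in this result was not tested. Without the 9 genes, 41 of 53 histone genes had a METTL14 peak in at least 1 library. Dropping only unmarked genes can only raise the share. The 53 include the genes without a window, which were not assessed. Over all protein-coding genes, with repeated windows kept, the share was 20.8%. The remaining 12 unmarked genes were H1f4, H1f5, H2ac1, H2ac4, H2ac8, H2ac10, H2bc1, H2bc8, H3c2, H3c8, H3c11 and H4c12.

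Over the METTL14 libraries the 48 peaks merged into 34 regions. Of these 24 (70.6%) were called in 1 library, 7 in 2, 2 in 3 and 1 in all 4, and of all 8091 METTL14 regions 70.7% were called in 1 library and 5.78% in all 4. Regions of CKO libraries alone numbered 14, of control libraries alone 11, and 9 were seen in both genotypes, which is 41.2%, 32.4% and 26.5% of the 34. Of all 8091 METTL14 regions the shares were 31.0%, 44.5% and 24.6%, and the difference was not tested. The 2 CKO libraries had 3 overlapping peaks (17.6% of the 17 and 33.3% of the 9), and the 2 control libraries 2 (22.2% of the 9 and 15.4% of the 13). CKO replicate 1 shared 5 peaks with each control library, whose lists are longer than that of CKO replicate 2. Over whole lists the CKO libraries shared 21.8% of the peaks of replicate 1 and 59.5% of those of replicate 2, and the control libraries 34.4% and 30.3%. In the order of the lists, histone peaks began at rank 800 and 425 in CKO and at 526 and 584 in control libraries. Their median rank was at 49.3% and 73.0% of the list in CKO and 36.9% and 53.1% in control libraries. Peaks near any protein-coding gene had theirs at 50.1% and 53.1% in CKO and 48.2% and 48.9% in control libraries. What the order of the lists stands for is not given in the sources used here.

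Histone genes outside the rule were looked at in the same way. H4f16, on chromosome 6 and once named Hist4h4, had 1 METTL14 peak in each CKO and each control library. H2aw, an H2A gene of the chromosome 11 Hist3 cluster, had 1 and 0 in CKO and 1 and 1 in control libraries, and its neighbour H2bu2 had none. A list of 18 genes for replication-independent and other non-member histones, 16 of them in the table, had 3 and 0 marked in CKO (18.8% and 0%) and 3 and 4 in control libraries (18.8% and 25%). The list leaves out H4f16, and its gene H1f6 was marked in CKO replicate 1 by the peak already counted for H4c3. All protein-coding genes stood at 12.9% and 4.91% in CKO and 9.71% and 11.2% in control libraries. H2aw was the only one of the 16 marked in both libraries of a genotype (6.25% in both controls, against 5.37% of all genes). A list of 28 genes for histone transcription, histone mRNA ends and histone chaperones had 5 and 1 marked in CKO (17.9% and 3.57%) and 5 and 5 in control libraries (17.9% each). Both CKO libraries marked 1 of the 28 (3.57%, against 3.91% of all genes) and both controls 3 (10.7%, against 5.37%), and with counts this small no difference between genotypes is read from them. Asf1b, a chaperone of H3 and H4, was the one in both CKO libraries (chr8:83955215-83955363 and chr8:83955321-83955469). Slbp, which binds the stem-loop of histone mRNA, was marked in both controls (chr5:33652420-33652568 and chr5:33652412-33652560) and in neither CKO library. Lsm11, a subunit of the U7 particle that cuts histone mRNA, was marked in CKO replicate 1 and both controls, and so was Pou2f1, which encodes Oct-1.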

How the data were processed

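Per the labels, METTL14 CUT&RUN was made in Mettl3 CKO and control cells and METTL3 CUT&RUN in Mettl14 CKO and control cells. The authors deposited 1 peak list per library, so replicates were not pooled. Per the submitters' processing notes, CASAVA, Trimmomatic 0.38, Bowtie2 2.4.1, SAMtools and HOMER were used, with no role or order given, on mm10; no source used here gives the peak threshold, any background library or the depth. The deposited score was 1 for every peak, so only positions were used. METTL14 lists held 1439 to 3922 peaks and METTL3 lists 242 to 353; peaks were 149 bp wide in METTL14 lists and 245 to 285 bp in METTL3 lists.

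A gene was marked by a peak sharing at least 1 bp with the gene or the 2 kb around it. Overlapping peaks were merged, and a replicated region is one touched by both libraries of a group. Libraries were compared by exact two-sided permutation. Code in Python 3.11.15 with scipy 1.17.1 was tested on simulated data. All genes with a peak are named, others by count. Same-numbered libraries were not treated as pairs. The members and lists were chosen with earlier results of these data known.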

Additional observations from a re-analysis of the deposited data

How the results depend on the processing

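The difference in METTL14 share, 0.202 percentage points higher in Mettl3 CKO than in control cells, kept its sign under all 15 alternatives run, in a design that allows no p below 0.333. Several of the 15 could not reverse it. The replicate block leaves the difference unchanged, and a 1 kb window takes in the same peaks. Both CKO shares exceeded both control shares, so leaving out 1 library could not reverse it either. The difference was 0.00106 with the first 50% of each list and 0.0347 at equal list length, and ranged from 0.106 to 0.298 points with 1 library left out. With differences taken within replicate numbers as a block it was 0.202 (exact sign-flip permutation p = 0.5, the smallest that 2 pairs allow). Deviations of same-numbered libraries had a correlation of 0.000119 over the 4546 coding genes with a METTL14 peak. Those genes were chosen by the same lists, so the value cannot show whether the numbers pair. Restricting the share to peaks near coding genes, dropping peaks near tRNA genes and dropping members over 2 kb long were chosen after seeing the data, and gave 0.270, 0.185 and 0.155 points. The METTL3 difference was 0 in all 12 alternatives run.

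Histone genes with a replicated region, 6 in Mettl3 CKO and 5 in control cells, moved by over 1.5 times under several settings. With the first 50% of each list the CKO count was 3. With a 5 kb window the control count was 8, and with a peak in each library, overlapping or not, it was 10. With a peak of either library the counts were 32 in CKO and 31 in control cells. With 1 library in place of both they were 12 to 27 in CKO and 16 to 25 in control cells. Lists with no height and unknown depth limit every count.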
